A study of Mus musculus with 12 samples.

Results

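Neural plate and brain patterning genes are examined here as 36 transcripts of the 22467 in the deposited count table. They were chosen by gene symbol for a known place in the early nervous system, not by a threshold on any measured value, although earlier results of these data were known when the list was made, and were found by matching transcript IDs to the GENCODE annotation of mouse build GRCm38. They form 5 groups, with 7 pan-neural genes, 11 genes of the forebrain and eye field, 7 of the midbrain and hindbrain, 6 of the ventral and intermediate neural tube and 5 of the dorsal neural tube. Of the 36, 35 passed the filter on low values (above 0.75 CPM, a count scaled to the library total, in 3 or more of the 6 footprint libraries). The exception was Nkx2-2, a homeobox gene of the ventral neural tube, which had 4 to 6 footprint counts per library (0.366 to 0.625 CPM) and was not tested.

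The study asked what a change in 1 ribosomal protein does to translation in the embryo. The samples were 3 wild-type (Rpl10a +/+) and 3 homozygous mutant (Rpl10a LOF/LOF) embryos, taken whole at E8.5. The LOF allele, made with CRISPR/Cas9, lacks part of the intron between exons 1 and 2 of Rpl10a, and the intron sequence that is left is retained and adds amino acids after the first methionine of RPL10A/uL1, a protein of the large ribosomal subunit. All cells of an embryo carry the allele. Each embryo was lysed by itself and gave 1 library of ribosome-protected fragments (RPF, the pieces of mRNA covered by ribosomes) and 1 RNA-seq library, so that 12 libraries came from 6 embryos without pooling. The sex of the embryos is not in the labels.

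By this stage the neural plate is folding into the neural tube, and its cells already carry regional identity. SOXB1 transcription factors mark neural progenitors along the whole axis, homeobox factors such as OTX2, SIX3 and RAX mark the anterior end, and the opposed domains of Otx2 and Gbx2 meet at the midbrain-hindbrain border, near which the engrailed and PAX2/5/8 factors are expressed. Across the dorsoventral axis, sonic hedgehog from the floor plate and BMP and WNT signals from the roof set nested domains of NKX, OLIG, DBX, PAX and ZIC factors. Several of these genes are also expressed outside the neural tube, such as Pax3 in somites, Cdh2 in heart and somites, Pax2 in intermediate mesoderm, and Otx2 and Hesx1 in anterior visceral endoderm.

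Total counts per library ran from 7041357 to 10863499 for RPF and from 9132521 to 26561843 for RNA. Rpl10a itself had RPF levels of 1562, 1611 and 1679 CPM in wild-type and 1125, 1039.6 and 939.7 CPM in LOF/LOF embryos (log2 fold change -0.64, SE 0.07, adjusted p = 0.00689 by the quasi-likelihood test of edgeR, adjusted after Benjamini-Hochberg over all tested transcripts like every edgeR value here). Markers of other tissues moved with genotype. The summed RPF level of 12 visceral endoderm genes was 6439 to 8465 CPM in wild-type and 2283 to 4851 CPM in LOF/LOF embryos, that of 8 primitive erythroid genes was 847 to 2847 against 3556 to 5839 CPM (with RNA sums that overlapped, at 416 to 1741 against 1573 to 2628 CPM), and that of 8 heart genes was 1530 to 1695 against 2032 to 2425 CPM. Those of 6 neural crest genes (423 to 460 against 394 to 453 CPM), 6 surface ectoderm genes (1232 to 1320 against 1052 to 1417 CPM) and 6 endothelium genes (451 to 471 against 424 to 582 CPM) overlapped. That of 8 paraxial mesoderm genes was 140 to 156 against 122 to 138 CPM, with 1 gene called lower, a median log2 fold change of 0.07 and overlapping RNA sums (157 to 173 against 146 to 165 CPM). The summed RPF of 4 Y-linked genes was 163 to 181 CPM in wild-type embryos and 9.33, 153 and 0.380 CPM in LOF/LOF embryos 1, 2 and 3. LOF/LOF embryos 1 and 3 thus lay far below every wild-type embryo. As far as Y-linked genes show sex, it is partly confounded with genotype here, and the 2 cannot be fully told apart. The number of transcripts called in RPF, 276 with all embryos, was 1449 without LOF/LOF embryo 2, 191 and 40 without LOF/LOF embryo 1 or 3, 12, 4 and 151 without wild-type embryo 1, 2 or 3, and 23 with a covariate from the Y-linked genes. The part that these differences have in the values of the neural genes was not tested. In a whole embryo, a smaller share of neural cells and less RNA or fewer ribosomes per neural cell cannot be told apart.

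In wild-type embryos the genes differed widely in how many footprints they gave for their RNA. To compare genes, RPF CPM per kb of counted coding sequence was divided by RNA CPM per kb of transcript, here called footprint density. Over the 35 genes its wild-type mean ran from 0.193 ± 0.044 for En2 to 5.26 ± 0.97 for Six6 (SD, n = 3), beside a median of 1.70 and quartiles of 0.993 and 2.64 over the 12570 tested transcripts with a coding length. The median of the 35 genes was 1.52, with 9 below the lower and 9 above the upper quartile of all transcripts.

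En2 and Lhx2 had the lowest densities. En2, an engrailed homeobox gene of the midbrain-hindbrain border, had densities of 0.243, 0.178 and 0.159 in the wild-type embryos (percentile 0.923 of the tested transcripts). Its RNA level was 5.10 ± 0.61 CPM per kb and its RPF level 0.969 ± 0.11 CPM per kb. Lhx2, a LIM homeobox gene needed for eye formation, followed at 0.260, 0.293 and 0.289 (percentile 2.24), and its wild-type values did not overlap those of En2. En1 (0.621 ± 0.051), Irx3 (0.707 ± 0.10), Irx5 (0.741 ± 0.066) and Zic5 (0.778 ± 0.028) came next, and neighbours among these 4 overlapped in their wild-type values. Of the 7 midbrain and hindbrain genes, 4 lay below the lower quartile of all transcripts.

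The highest densities belonged to Six6 and Six3. Six6 had densities of 6.27, 5.19 and 4.33 and Six3 had 6.38, 4.60 and 4.35, and both encode homeobox factors of the anterior neural plate and optic field. Pax2 (4.40 ± 1.5), the neural cell adhesion molecule gene Ncam1 (4.25 ± 0.20) and Sox3 (3.24 ± 0.27) followed, with overlapping values among the first 4. Six6 had an RNA level of 0.666 ± 0.17 CPM per kb and an RPF level of 3.48 ± 0.94 CPM per kb, so that it had less RNA than En2 and more footprints. By RPF per kb, the genes with the most footprints were Cdh2 (162 ± 3.5 CPM per kb), which encodes N-cadherin, Ncam1 (70.4 ± 3.6), Sox3 (56.6 ± 4.6) and Sox2 (51.0 ± 3.7). In LOF/LOF embryos the same genes lay at the ends, with Lhx2 (0.229 ± 0.091) and En2 (0.230 ± 0.11) lowest and Six3 (4.59 ± 0.86) and Six6 (6.20 ± 1.4) highest.

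**Figure D1:**
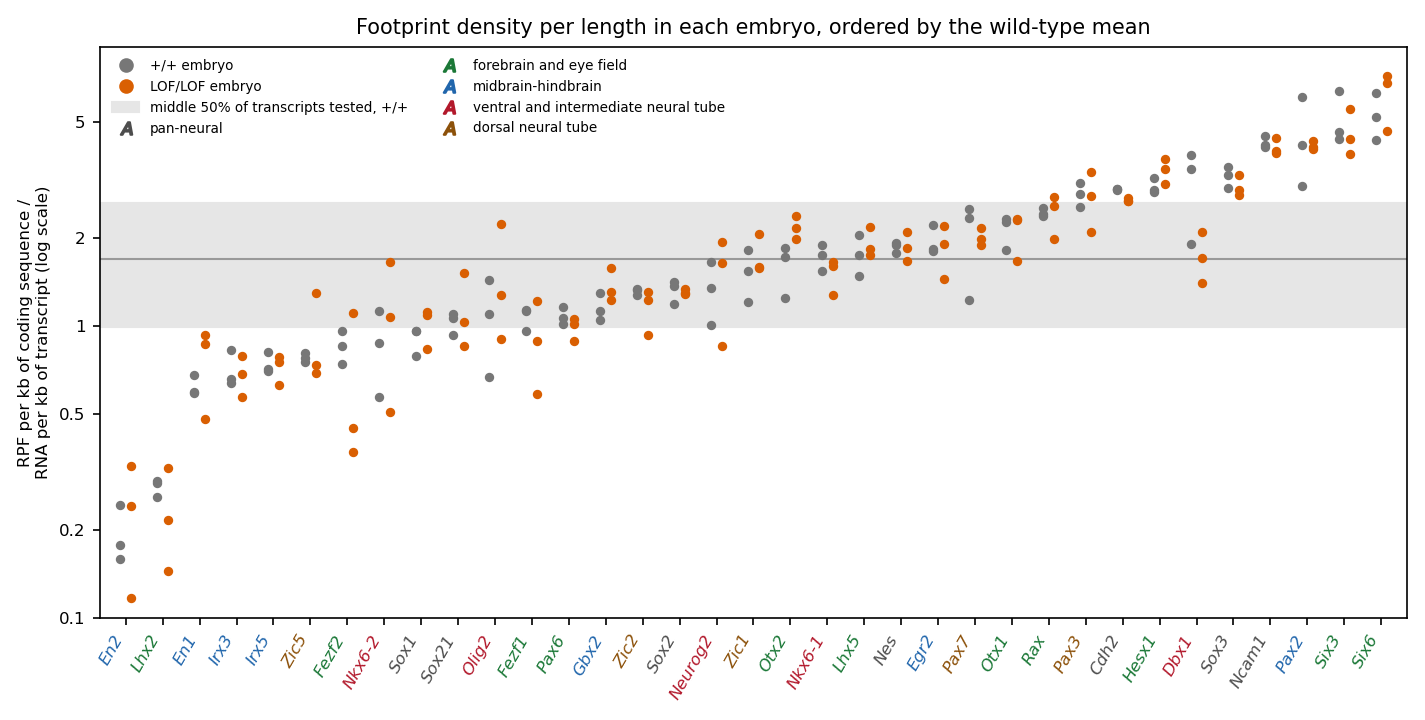
Footprint density (RPF CPM per kb of coding sequence over RNA CPM per kb of transcript, log axis) of the 35 tested genes in each of the 3 wild-type (grey) and 3 LOF/LOF (orange) embryos, ordered by the wild-type mean, with gene names coloured by group and the middle 50% of all tested transcripts as a band. En2 and Lhx2 lie lowest, at 0.193 and 0.281 in wild-type embryos, and Six3 and Six6 highest, at 5.11 and 5.26.

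The sequences around the start codon are given for the 4 genes at the ends of this order and for 4 genes that the genotype comparisons turn on. Each runs 5′ to 3′ on the coding strand of GRCm38 from 12 bases before the annotated start codon to 15 bases after it, with the start codon in capitals, and comes from the GENCODE transcript used for the count.
En2: tttctgtgaagtATGgaggagaaggattcc
Lhx2: ctcacgaagaccATGccgtccatcagcagt
Six3: gcaggtcagtccATGgtattccgctccccc
Six6: cgcgcagcctcgATGttccagctgcccatt
Otx2: aacaaccttagcATGatgtcttatctaaag
Pax6: accagctccagcATGcagaacagtcacagc
Dbx1: cccgctctaaccATGatgttccccggcctc
Zic2: ggcgcgctggccATGcttctggacgcgggg
The start codon of En2 lies at chr5:28166527-28166529, that of Otx2 at chr14:48662538-48662540 on the minus strand, that of Pax6 at chr2:105680298-105680300, that of Dbx1 at chr7:49636713-49636715 on the minus strand, and that of Zic2 at chr14:122475676-122475678.

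The start contexts and 5′UTRs of the genes were set beside those of all tested transcripts, as a description. A purine (A or G) stood 3 bases before the start codon in 24 of 34 genes (70.6%) and in 87.1% of the 12354 tested transcripts with enough sequence. A G directly after the start codon stood in 10 of 34 (29.4%), against 52.9% of the same transcripts. Among 5′UTRs of at least 20 nt, the median length was 360 nt for 33 genes and 182 nt over 12112 transcripts, and at least 1 ATG lay upstream in 23 of the 33 (69.7%) against 51.6%. All 7 midbrain and hindbrain genes had an upstream ATG. En2 has a 5′UTR of 833 nt with 3 upstream ATGs, Lhx2 one of 528 nt with 1, Six3 one of 114 nt with 1, and Six6 one of 164 nt with 0. Across the 33 genes with such a 5′UTR, density and the number of upstream ATGs had a Spearman rho of -0.47, beside -0.30 over the 12112 transcripts. These are descriptions across genes, which share the same libraries and are not independent replicates, and longer 5′UTRs hold more ATGs. The density also depends on the annotated transcript being the one expressed, which was not tested. The coding sequences had a median GC content of 62.9%, against 53.1% over all tested transcripts.

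The genotype comparison of footprints gave no call among the 35 genes. The count at an adjusted p below 0.1 was 0 of 35, where 2.19% of the 12576 tested transcripts were called. At an unadjusted p below 0.05 there were 3 (Pax6, Dbx1 and Zic2), where the share of all transcripts was 13.7%, and among other tools DESeq2 and limma-voom called 0 and limma-voom with surrogate variables 3, in a fit that called 10.4% of all transcripts. Footprint levels of the same 3 genes lay below the wild-type range in all LOF/LOF embryos, where 9.45% of all transcripts did so, and 0 genes lay above it, where 9.92% of all transcripts did. Fold changes were negative for 26 of the 35 genes, beside 49.1% of all transcripts, with a median log2 fold change of -0.08 for the genes and 0.00 over all transcripts. That median was -0.155, -0.0336 and -0.0202 without LOF/LOF embryo 1, 2 or 3, -0.123 without wild-type embryo 1 and -0.156 with the Y-linked covariate. The 95% interval lay within 0.5 of 0 on the log2 scale for 12 genes and within 1 for 31.

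In RNA, 1 of the 35 genes, En2, was called, where 5.02% of all transcripts were. At an unadjusted p below 0.05 there were 6, all lower in LOF/LOF embryos (En2, Sox1, Olig2, Sox21, Zic1 and Otx2). Of all 12576 transcripts, 17% passed in either direction, and 1207 passed as lower in LOF/LOF embryos. The RNA levels of 6 genes (En2, Sox1, Sox21, Olig2, Zic1 and Egr2) lay below the wild-type range in all LOF/LOF embryos, beside 12.6% of all transcripts, and 0 lay above it, beside 10.2%. Again 26 of 35 fold changes were negative, against 50.6% of all transcripts, with a median of -0.06 beside 0.00. The 95% interval lay within 0.5 of 0 for 22 genes.

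Translation efficiency (TE), tested as the difference between the RPF and RNA fold changes in 1 model of all 12 libraries, gave 0 calls among the 35 genes and 0 (0%) among the 12576 transcripts. At an unadjusted p below 0.05 there was 1 gene, Otx2, where 4.44% of all transcripts passed. DESeq2 called 4 transcripts, none of them among the 35 genes, and limma-voom called 0 with and without surrogate variables. The ratio of RPF to RNA lay below the wild-type range in all LOF/LOF embryos for 1 gene, Cdh2 (5.22% of all transcripts), and above it for 1 gene, Otx2 (6.87%). TE fold changes were negative for 18 and positive for 17 genes, with a median of -0.01 beside 0.01 over all transcripts.

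**Figure D2:**
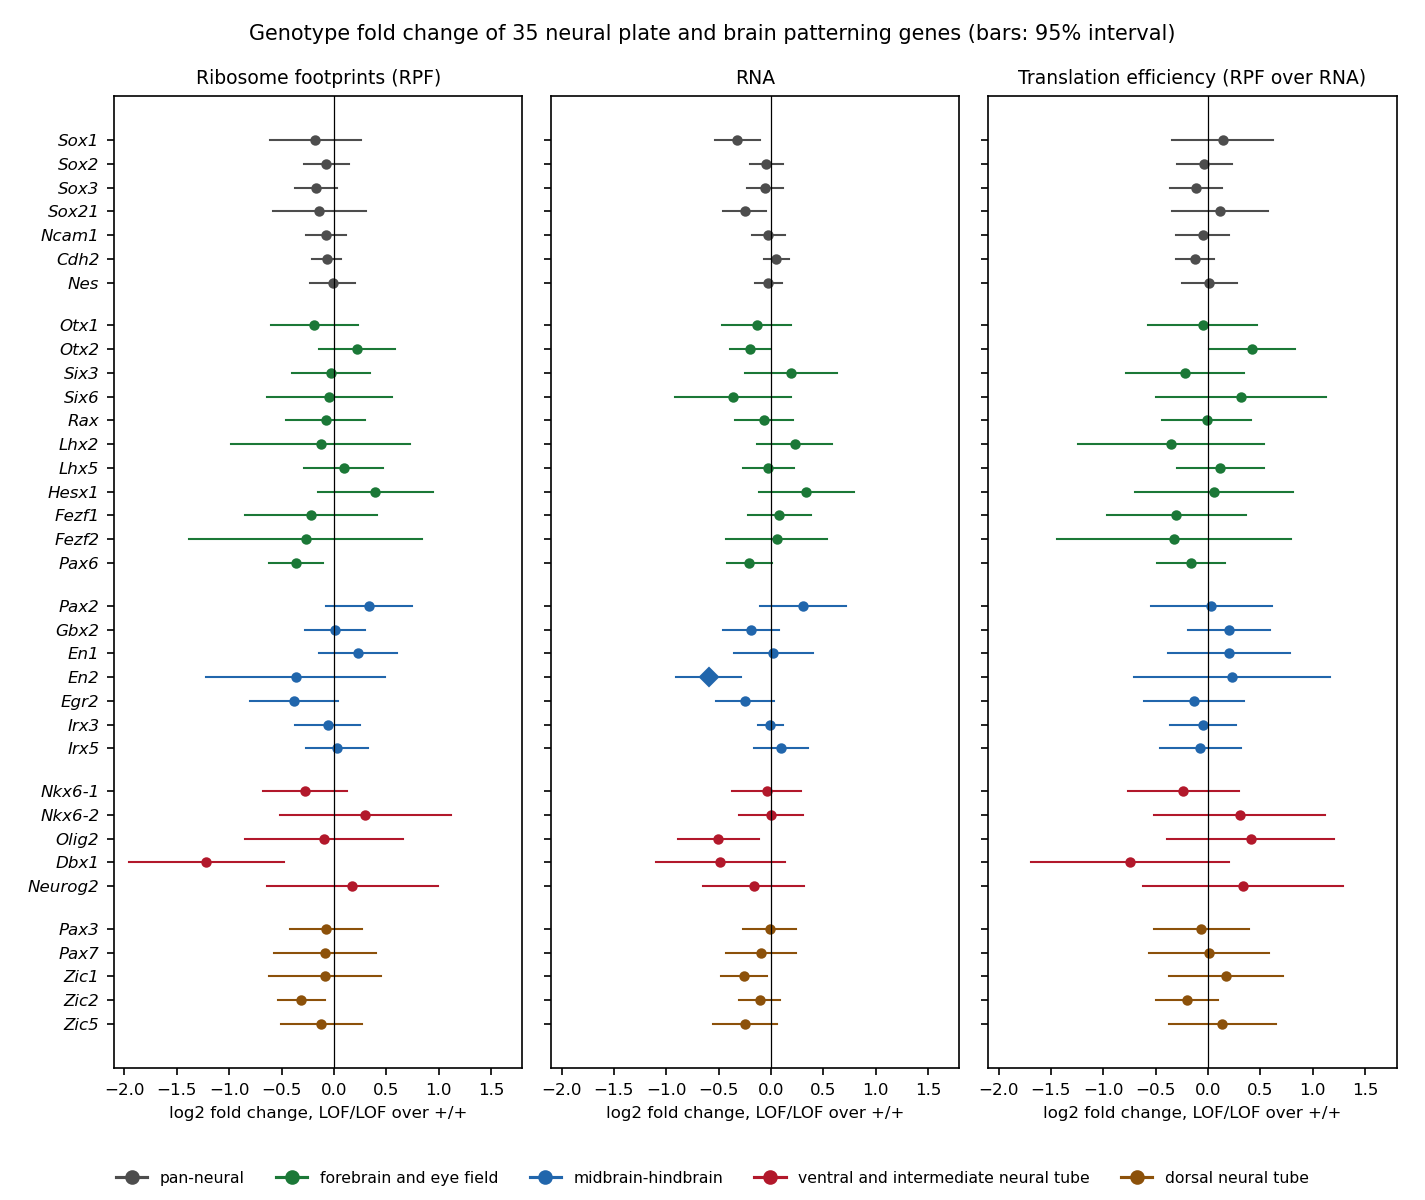
Log2 fold change of LOF/LOF over wild-type embryos for RPF (left), RNA (middle) and TE (right), with 95% intervals as bars, for the 35 tested genes coloured by group. The diamond marks the only call, En2 in RNA at -0.60, and the interval of Dbx1 in RPF (-1.96 to -0.48) lies farthest below 0.

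The mutant embryos differed among themselves. The median over the 35 genes of the log2 difference from the wild-type mean was -0.01, 0.08 and -0.06 in RPF for wild-type embryos 1, 2 and 3, and 0.09, -0.16 and -0.11 for LOF/LOF embryos 1, 2 and 3. In RNA it was -0.02, 0.02 and -0.02 in wild-type and 0.01, -0.11 and -0.15 in LOF/LOF embryos. LOF/LOF embryo 1 thus stood with or above the wild-type embryos, and embryos 2 and 3 stood below all of them in both measures. Summed over all 36 genes, RPF was 1085 to 1157 CPM in wild-type embryos and 1153, 991 and 1044 CPM in LOF/LOF embryos 1, 2 and 3. Without LOF/LOF embryo 1 the median RNA fold change was -0.14.

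**Figure D3:**
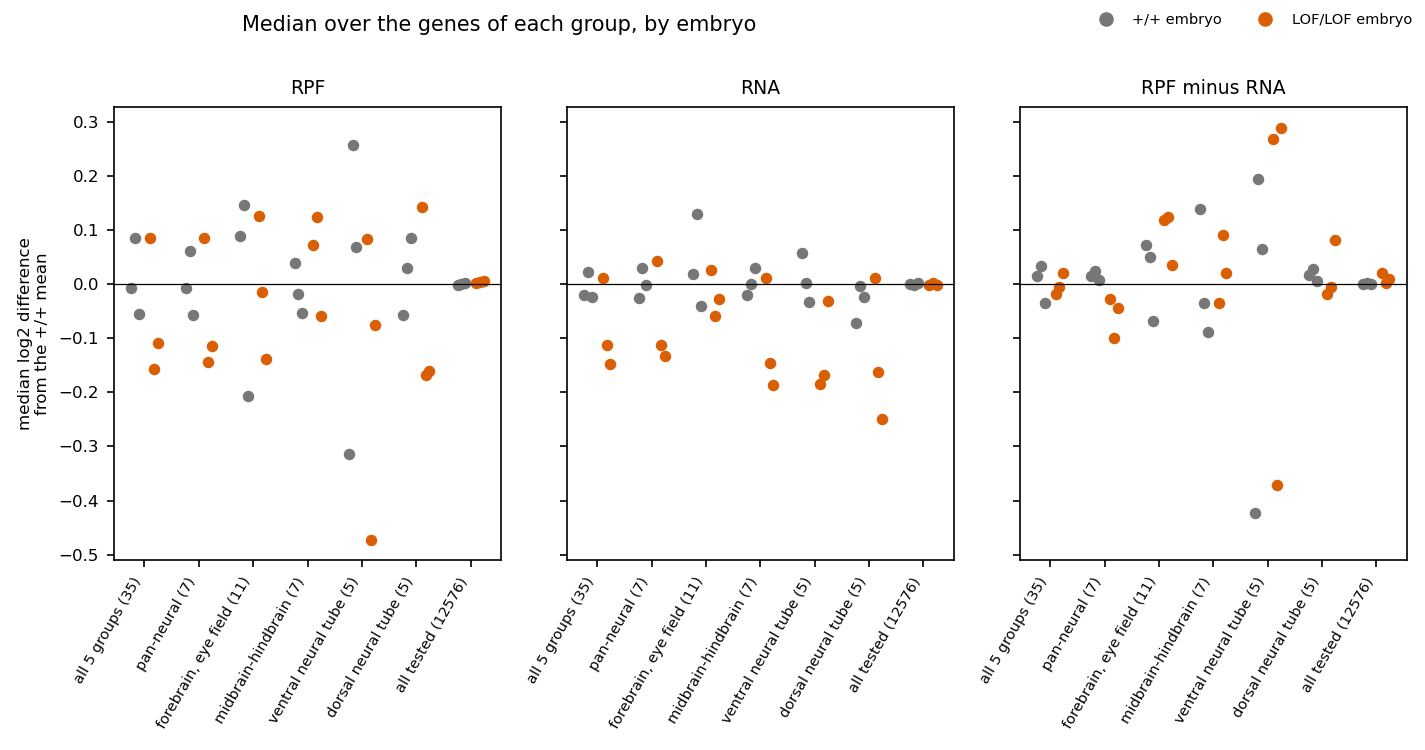
Median log2 difference from the wild-type mean over the genes of each group, for RPF (left), RNA (middle) and RPF minus RNA (right), with 1 point per embryo and the number of genes in brackets. For the 35 genes together, LOF/LOF embryos 2 and 3 lie below all wild-type embryos in RPF (-0.16 and -0.11) and RNA (-0.11 and -0.15) and LOF/LOF embryo 1 does not (0.09 and 0.01).

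In the pan-neural group no gene was called in RPF, RNA or TE. Its RPF fold changes ran from -0.18 (Sox1) to -0.01 (Nes), all 7 below 0 (lowest adjusted p = 0.448 by edgeR). Sox1 (0.01) and Sox21 (0.01) turned positive without LOF/LOF embryo 3, Sox21 (0.34) with the Y-linked covariate, and Nes without LOF/LOF embryo 2 (0.10) or wild-type embryo 2 (0.03) and with the GC correction (0.01). Cdh2 had RPF levels of 421, 439 and 433 CPM in wild-type and 436, 390 and 406 CPM in LOF/LOF embryos. Its RNA levels were 263, 273 and 267 CPM in wild-type and 296, 259 and 277 CPM in LOF/LOF embryos. Both measures overlapped between genotypes, whereas their ratio did not, at 1.60, 1.61 and 1.62 in wild-type and 1.47, 1.50 and 1.47 in LOF/LOF embryos. The TE fold change was small and did not pass the test (-0.12, 95% interval -0.30 to 0.06, adjusted p = 1.00 by edgeR). Heart, where Cdh2 is also expressed, had higher marker levels in LOF/LOF embryos, and whether this has a part in the Cdh2 ratio was not tested.

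Sox1, Sox2 and Sox3 encode the SOXB1 factors of neural progenitors. Sox1 RNA was 48.4, 54.3 and 46.5 CPM in wild-type and 45.4, 37.5 and 36 CPM in LOF/LOF embryos, without overlap (log2 fold change -0.32, SE 0.10, adjusted p = 0.122 by edgeR). With DESeq2 it was called (adjusted p = 0.0639), and likewise without the filter and without LOF/LOF embryo 1. Sox2 RPF was 42.1 to 48.2 CPM in wild-type and 40.1 to 48.7 CPM in LOF/LOF embryos (-0.07, 95% interval -0.29 to 0.14). Sox3, which is X-linked, had RPF of 67.4 to 79.4 CPM in wild-type and 58.4 to 68.6 CPM in LOF/LOF embryos (-0.17, 95% interval -0.37 to 0.03). Sox21, a SOXB2 factor, had RNA of 32.2 to 34.0 CPM in wild-type and 24.5 to 31.2 CPM in LOF/LOF embryos (-0.25, SE 0.09, adjusted p = 0.198 by edgeR). A gene on the opposite strand overlaps Sox21, and whether reads were assigned by strand is not given in the sources used here. Ncam1 and Nes, which encodes the intermediate filament nestin, had RPF fold changes of -0.08 and -0.01, with intervals within 0.26 and 0.22 of 0.

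In the forebrain and eye field no gene was called in RPF, RNA or TE. RPF fold changes were negative for 8 of 11 genes and ran from -0.37 (Pax6) to 0.40 (Hesx1). Without LOF/LOF embryo 3, Six3 (0.04), Lhx2 (0.23), Fezf1 (0.08) and Fezf2 (0.07) turned positive. So did Six6 without wild-type embryo 2 (0.16) and Rax without LOF/LOF embryo 2 (0.05). With the Y-linked covariate, Lhx2 (0.47), Fezf1 (0.33) and Fezf2 (0.69) were positive. Lhx5 turned negative with that covariate (-0.14) and without LOF/LOF embryo 1 (-0.03). Pax6, a paired-box gene of the eye field, forebrain and intermediate neural tube (transcript at chr2:105668900-105697364), had RPF levels of 19.2, 16.7 and 16.9 CPM in wild-type and 14.4, 13.7 and 13.0 CPM in LOF/LOF embryos. The groups did not overlap, and the difference did not pass the adjusted threshold (log2 fold change -0.37, SE 0.12, adjusted p = 0.192 by edgeR). Its RNA was 34.3, 34.5 and 33.0 CPM in wild-type and 33.7, 28.2 and 25.6 CPM in LOF/LOF embryos, which overlapped (-0.21, SE 0.10, adjusted p = 0.329 by edgeR). Its RPF/RNA ratio was 0.519 ± 0.037 in wild-type and 0.474 ± 0.041 in LOF/LOF embryos (SD, n = 3), and the TE fold change was -0.16 with an interval from -0.48 to 0.16. Pax6 RPF was called in 1 of 15 alternatives, limma-voom with surrogate variables (adjusted p = 0.0811).

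Otx2, the homeobox gene that sets forebrain and midbrain identity, had a higher mean level of footprints and a lower mean level of RNA in LOF/LOF embryos. Its RPF levels were 20.0, 19.4 and 13.8 CPM in wild-type and 24.9, 18.3 and 19.4 CPM in LOF/LOF embryos, with a fold change of 0.22 (SE 0.16). Over 15 alternatives the RPF fold change ran from 0.07 to 0.33. Its RNA levels were 30.0, 27.0 and 28.4 CPM in wild-type and 27.0, 23.7 and 23.2 CPM in LOF/LOF embryos, with a fold change of -0.20 (SE 0.09). The RPF/RNA ratios were 0.667, 0.719 and 0.485 in wild-type and 0.922, 0.770 and 0.838 in LOF/LOF embryos. They did not overlap, and wild-type embryo 3 was the lowest. The TE fold change was 0.42 (95% interval 0.01 to 0.83), and its adjusted p of 1.00 by edgeR did not pass. It was 0.27 without wild-type embryo 3, and 0.27 to 0.52 over 15 alternatives. Otx1, its paralog, had a TE fold change of -0.05 with an interval from -0.57 to 0.47. The markers of visceral endoderm, whose anterior part also expresses Otx2, had a median RPF log2 fold change of -1.10. Of 11 tested, 9 were called lower, beside 144 of the 12576 tested transcripts. These markers were not chosen for the anterior part, and whether that tissue has a part in the Otx2 values was not tested.

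The other forebrain genes overlapped between genotypes in every measure. Hesx1, a repressor needed for the anterior forebrain and pituitary, had the highest fold changes of the group in RPF (0.40, SE 0.25) and RNA (0.34, SE 0.20). Six3 and Six6 had RPF fold changes of -0.03 and -0.04, Rax, the retinal homeobox gene, had -0.08, and Lhx5 had 0.09. Fezf1 and Fezf2, zinc-finger genes of the anterior neural plate, had -0.22 and -0.27. Fezf2 had 3 to 10 and Lhx2 6 to 12 footprint counts per library, and the intervals of their RPF fold changes (-1.38 to 0.84 and -0.98 to 0.73) allow changes over 1.5-fold in either direction.

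In the midbrain and hindbrain the RNA of En2 fell. En2 (transcript at chr5:28165694-28172166) had RNA levels of 16.0, 17.8 and 20.3 CPM in wild-type and 14.5, 11.2 and 9.97 CPM in LOF/LOF embryos. All LOF/LOF embryos lay below all wild-type embryos (log2 fold change -0.60, SE 0.14, 95% interval -0.90 to -0.29, adjusted p = 0.0530 by edgeR). Its footprints numbered 7 to 11 per library in wild-type and 3 to 9 in LOF/LOF embryos, at 1.01, 0.819 and 0.834 against 0.437, 0.698 and 0.856 CPM, and these overlapped (-0.37, 95% interval -1.22 to 0.49). At that depth the interval held both 0 and the fold change of the RNA. The call held in 8 of 14 alternatives, with a fold change of -0.77 to -0.50 over all 14. The call was lost with the Y-linked covariate (fold change -0.74, adjusted p = 0.414 by edgeR), a fit that called 0.111% of all transcripts. It was also lost without wild-type embryo 1, 2 or 3 or LOF/LOF embryo 2 or 3 (fold changes -0.66 to -0.50, adjusted p = 0.115 to 0.157 by edgeR). En2 did not pass the stricter filter.

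None of the other 6 genes of this group was called in any measure. En1, the other engrailed gene, had RNA of 24.3, 18.5 and 20.3 CPM in wild-type and 19.6, 16.9 and 28.2 CPM in LOF/LOF embryos, with a fold change of 0.02 (SE 0.17). Gbx2, which marks the anterior hindbrain opposite Otx2, had an RNA fold change of -0.19 (SE 0.12) and an RPF fold change of 0.01 (SE 0.13). Pax2 had 0.34 (SE 0.19) in RPF and 0.30 (SE 0.18) in RNA, neither called. Egr2, the gene of rhombomeres 3 and 5, had RNA of 7.87 to 8.77 CPM in wild-type and 5.79 to 7.40 CPM in LOF/LOF embryos, which did not overlap (-0.25, SE 0.12, adjusted p = 0.346 by edgeR), and an RPF fold change of -0.38 (SE 0.19). Irx3 had the tightest RNA value of all 35 genes (-0.01, SE 0.05), and Irx5 had 0.10 (SE 0.12). The difference between En2 and En1 in their response was not tested.

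**Figure D4:**
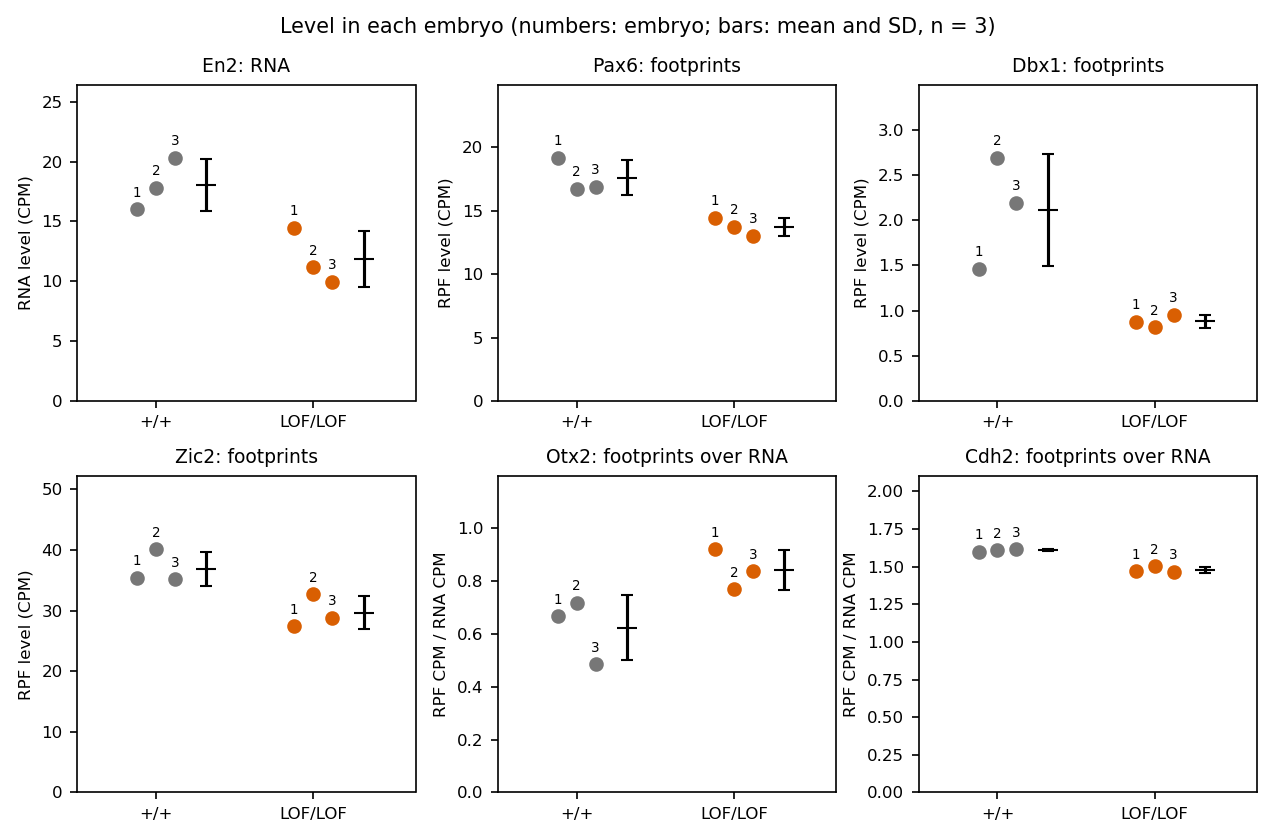
Levels in each embryo (dots, numbered by embryo) with mean and SD (n = 3) for the gene called in RNA (En2, RNA CPM) and for the genes whose genotypes did not overlap in RPF (Pax6, Dbx1, Zic2, RPF CPM) or in RPF/RNA (Otx2, Cdh2). En2 RNA is 16.0 to 20.3 CPM in wild-type and 9.97 to 14.5 CPM in LOF/LOF embryos, and the Otx2 ratio is the only one of the 6 that is higher in LOF/LOF embryos.

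In the ventral and intermediate neural tube no gene was called, and counts were low. Dbx1, a homeobox gene of the intermediate progenitor domains (transcript at chr7:49631499-49636849), had RPF levels of 1.46, 2.69 and 2.19 CPM in wild-type and 0.875, 0.815 and 0.951 CPM in LOF/LOF embryos, from 16, 23 and 21 against 6, 7 and 10 counts. The groups did not overlap, with a log2 fold change of -1.22, farther from 0 than that of any other of the 35 genes in RPF (SE 0.34, 95% interval -1.96 to -0.48, adjusted p = 0.131 by edgeR). Its RNA, from 14 to 45 counts per library, was 1.69, 1.73 and 1.25 CPM in wild-type and 1.13, 0.856 and 1.50 CPM in LOF/LOF embryos and overlapped (-0.48, SE 0.28). The TE fold change of -0.74 had an interval from -1.69 to 0.20. Dbx1 RPF passed the adjusted threshold in 2 of the 13 alternatives that gave an adjusted p (DESeq2 gave none), without the filter (adjusted p = 0.0959) and in limma-voom with surrogate variables (adjusted p = 0.0932).

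Olig2, a bHLH gene of the motor neuron progenitor domain, had RNA levels of 5.31, 3.84 and 4.24 CPM in wild-type and 2.72, 3.22 and 3.32 CPM in LOF/LOF embryos. These did not overlap, and the difference did not pass the adjusted threshold (-0.50, SE 0.17, adjusted p = 0.176 by edgeR). Its RPF fold change was -0.09 (SE 0.34) from 9 to 21 counts. Nkx6-1 and Nkx6-2, homeobox genes of the ventral progenitors, had RPF fold changes of -0.28 (SE 0.18) and 0.30 (SE 0.37), and Neurog2, a proneural bHLH gene, had 0.17 (SE 0.37). The mean RPF level of Nkx2-2, not tested, was 0.486 ± 0.13 CPM in wild-type against 0.508 ± 0.065 CPM in LOF/LOF embryos (SD, n = 3), and an opposite-strand gene overlaps it.

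In the dorsal neural tube all 5 genes had negative fold changes in RPF (-0.31 to -0.08) and in RNA (-0.26 to -0.01), and none was called. Leaving out 1 embryo turned Pax3, Pax7 or Zic1 positive in RPF and Pax3 or Pax7 in RNA, at up to 0.17, and Pax3 RNA was 0.01 with the GC correction and 0.00 in limma-voom with surrogate variables. Zic2, a zinc-finger gene whose loss impairs neural tube closure (transcript at chr14:122475435-122479852), had RPF levels of 35.4, 40.1 and 35.1 CPM in wild-type and 27.4, 32.7 and 28.8 CPM in LOF/LOF embryos. The groups did not overlap (-0.31, SE 0.10, adjusted p = 0.203 by edgeR). Its RNA was 42.6, 47.9 and 44.0 CPM in wild-type and 46.9, 39.9 and 37.6 CPM in LOF/LOF embryos, overlapping (-0.11, SE 0.09), and the TE fold change was -0.20 with an interval from -0.50 to 0.09. LOF/LOF embryo 1 had the lowest Zic2 RPF level and the highest Zic2 RNA level of the mutants. Without LOF/LOF embryo 2, Zic2 RPF was called (-0.39, adjusted p = 0.0426 by edgeR), and limma-voom with surrogate variables also called it (adjusted p = 0.0760). Zic1 RNA was 13.9 to 17.5 CPM in wild-type and 13.1 to 13.3 CPM in LOF/LOF embryos (-0.26, SE 0.10, adjusted p = 0.214 by edgeR). Pax3 and Pax7, paired-box genes of dorsal progenitors, had RPF fold changes of -0.08 (SE 0.16) and -0.09 (SE 0.22), and Zic5 had -0.12 (SE 0.18).

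A further list of 46 neural genes, made of signals, Notch pathway genes and other regional factors, was read in the same fits. Of these, 39 were tested, with 2 called in RPF (2.19% of all transcripts) and 1 in RNA (5.02% of all transcripts). Fgf15, which encodes a fibroblast growth factor of the early brain, had RPF of 34.6, 33.7 and 36.7 CPM in wild-type and 58.3, 42.5 and 46.0 CPM in LOF/LOF embryos and rose (0.48, SE 0.12, adjusted p = 0.0901 by edgeR). Dll1, a Notch ligand of neural progenitors and presomitic mesoderm, had RPF of 51.2, 55.4 and 44.8 CPM in wild-type and 42.7, 32.1 and 31.2 CPM in LOF/LOF embryos and fell (-0.52, SE 0.13, adjusted p = 0.0901 by edgeR). Both calls held in 9 of 15 alternatives. For Dll1 they were lost with the Y-linked covariate, the GC correction and without LOF/LOF embryo 3 or any wild-type embryo, and for Fgf15 with the Y-linked covariate and without any embryo except LOF/LOF embryo 2. Over the 15 alternatives the RPF fold change ran from -0.67 to -0.44 for Dll1 and from 0.25 to 0.56 for Fgf15. Hes5, a Notch target of neural progenitors, had RNA of 21.0, 24.2 and 22.4 CPM in wild-type and 16.1, 14.5 and 14.9 CPM in LOF/LOF embryos and fell (-0.58, SE 0.09, adjusted p = 0.0118 by edgeR). The call was lost in 1 of 15 alternatives, the Y-linked covariate, a fit that called 0.111% of all transcripts in RNA. The RNA fold change ran from -0.66 to -0.52 over the 15 alternatives. The Hes5 footprints did not pass (-0.41, SE 0.20, adjusted p = 0.393 by edgeR) except in limma-voom with surrogate variables (adjusted p = 0.0752), and their fold change ran from -0.93 to -0.22 over 15 alternatives. The median RPF fold change of the 39 genes was -0.07 and their median RNA fold change -0.01.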

How the data were processed

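The 12 libraries were RPF and RNA libraries of the same 6 single embryos, lysed with cycloheximide, the lysate for RPF then digested with RNase A and RNase T1. The authors trimmed reads, discarded rRNA, tRNA and snRNA with bowtie2, mapped what was left to GRCm38/mm10 GENCODE VM20 canonical transcripts, and removed duplicates by molecular identifier. The deposited values are raw counts per transcript, of RPF with the A site in the coding sequence (without its first 15 and last 5 codons) and of RNA reads on the whole transcript. RPF libraries held 7041357 to 10863499 counts and RNA libraries 9132521 to 26561843, and SEs rather than counting intervals give the precision.

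Symbols came from GENCODE M21 (GRCm38): 21976 IDs had the same version there, 477 had another and 14 were missing. Of the 36 genes, 35 matched in the same version. Transcripts above 0.75 CPM in 3 or more RPF libraries (12576) were fitted with edgeR 4.0.16 (R 4.3.3): TMM normalization for RPF and RNA apart, the quasi-likelihood test of genotype, TE as the interaction with library type, and Benjamini-Hochberg adjustment over all transcripts with a threshold of 0.1. The study used voom, limma, sva and locfdr with settings that are not given in the sources used here, so limma 3.58.1 with and without sva 3.50.0 and DESeq2 1.42.0 were alternatives, beside other filters, RLE size factors, a GC correction, a covariate from Y-linked genes, blocks and each embryo left out. CPM are TMM-scaled, and the embryo medians use log2(CPM + 0.5). The steps were tested on simulated counts, with changes placed in RPF among all tested transcripts. Changes of 1 on the log2 scale were called in 78% of cases in RPF and 72% in TE. Those of 0.5 were called in 47% and 29%, so that many changes of this size were missed. Of 141 RPF calls 16 were of unchanged transcripts, and of 116 TE calls 15 were.

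The genes and lists were chosen with earlier results of these data known. All 36 genes are reported, with the value in every embryo for those called or not overlapping in RPF or RPF/RNA (Sox1 and Olig2 RNA and the En1 comparison were added after their values were seen). Of the further list, genes called in RPF or RNA are named. Equal replicate numbers of the 2 genotypes belong to different embryos: deviations of same-numbered libraries correlated at -0.10 to 0.08. RPF and RNA of the same embryo correlated at 0.19 to 0.40, as the labels pair them.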

Additional observations from a re-analysis of the deposited data

How the results depend on the processing

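In RPF, 0 of the 35 genes were called; with surrogate variables in limma-voom 3 were (Dbx1, Pax6 and Zic2, where 10.4% of all transcripts were called), without the filter 1 (Dbx1, 2.58% of all), and with 1 embryo left out 0 to 1 (Zic2 without LOF/LOF embryo 2, 11.5% of all). In RNA, 1 was called (En2). DESeq2 and the fit without the filter each called 2 (En2 and Sox1, where 4.92% and 3.51% of all transcripts were called), the Y-linked covariate and the stricter filter 0 (0.111% and 5.21% of all), and leaving out 1 embryo 0 to 4, the highest without LOF/LOF embryo 1 (En2, Pax6, Sox1 and Sox21, 3.5% of all), beside 1.10% to 4.72% of all transcripts over the 6 fits. In TE no alternative called any of the 35 genes. The median log2 fold change of the genes stayed below 0 in RPF (-0.155 to -0.0202 with 1 embryo left out) and in RNA (-0.135 to -0.0336), where the Y-linked covariate gave -0.126. In TE it was -0.0738 in limma-voom with surrogate variables and -0.0364 to 0.0218 with 1 embryo left out, changing sign without LOF/LOF embryo 2 or wild-type embryo 2. The cause of these shifts was not tested.

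The replicate block called 0 genes in RPF (2.49% of all transcripts) and 1 in RNA (4.20% of all). The embryo replicate block called 0 in TE (0% of all). In RPF and RNA the block joins embryos of the 2 genotypes that share only a number, so unchanged calls there say nothing about pairing. The medians under the block were -0.08, -0.07 and -0.02. Replicate numbers pair the libraries only within an embryo. Of 1557 values of single genes under the alternatives, 1405 kept their direction and side of the threshold, 6 lost a call (all En2 RNA), 10 gained one, and 136 changed sign without being called in either fit. The widest SEs of RPF fold changes were those of Fezf2 (0.50, from 3 to 10 counts per library), Lhx2 (0.39, from 6 to 12) and En2 (0.39, from 3 to 11).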
